A study of Rattus norvegicus with 65 samples.

Results

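The secreted Wnt inhibitors described here are 7 genes, Sfrp1, Sfrp2, Sfrp4, Frzb, Dkk2, Dkk3 and Wif1, taken by symbol from the 14554 genes of the count table, in which all 7 had a row. They were selected on their measured expression in these libraries, as secreted inhibitors whose earlier results were known, and which comparison led to the choice is not recorded. Their levels and fold changes are therefore given as a description, without p-values. The RNA was from primary cardiomyocytes of neonatal rats, starved of serum overnight and then exposed for 6 or 24 hours to 10 mM 5FU (5-fluorouracil, a pyrimidine analogue), 2.5 mM Ace (acetaminophen, an analgesic) or 1.25 μM Dox (doxorubicin, an anthracycline). Solvent controls were DMSO1, which had 1% DMSO and belongs to 5FU, and DMSO2, which had 0.25% DMSO and belongs to Ace and Dox. There were 6 libraries each for DMSO1 and 5FU at both times and for Ace at 6 hours, and 7 each for DMSO2 and Dox at both times and for Ace at 24 hours, 65 in all. Since cells of different litters were combined ahead of plating, replicate libraries stand for parallel wells of 1 preparation and not for separate animals. Total counts ran from 14332827 to 25738297 per library.

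Wnt proteins are secreted glycoproteins that bind Frizzled receptors together with the co-receptors Lrp5 and Lrp6. In the canonical branch of the pathway, binding stops the destruction of beta-catenin, which then acts with TCF/LEF factors on target genes such as Axin2. The secreted inhibitors work outside the cell. Secreted Frizzled-related proteins and Wif1 bind Wnt proteins themselves, whereas Dkk2 occupies the Lrp co-receptors. In the heart the pathway is known for its part in development and in remodelling after injury, and fibroblasts are a known source of several secreted Frizzled-related proteins.

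Promoter windows from RefSeq (GRCr8), each 250 bases before to 50 bases after an annotated gene start, were found for 3 of the 7 members, Sfrp2, Frzb and Wif1, and not for Sfrp1, Sfrp4, Dkk2 and Dkk3. These 3 genes are shown because a window was found for each of them. All 3 were lower than their controls at 24 hours with every drug. The windows lie at chr2:171387286-171387585 on the plus strand for Sfrp2, chr3:85772047-85772346 on the minus strand for Frzb and chr7:58433329-58433628 on the plus strand for Wif1. They are written 5′ to 3′ in the direction of the gene, with CpG dinucleotides in capitals.
Sfrp2: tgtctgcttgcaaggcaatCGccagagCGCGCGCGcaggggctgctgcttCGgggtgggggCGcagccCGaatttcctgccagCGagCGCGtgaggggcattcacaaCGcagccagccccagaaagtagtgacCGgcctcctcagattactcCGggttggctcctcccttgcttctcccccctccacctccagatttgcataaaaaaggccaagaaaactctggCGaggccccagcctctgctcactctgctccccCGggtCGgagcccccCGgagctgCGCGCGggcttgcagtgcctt
Frzb: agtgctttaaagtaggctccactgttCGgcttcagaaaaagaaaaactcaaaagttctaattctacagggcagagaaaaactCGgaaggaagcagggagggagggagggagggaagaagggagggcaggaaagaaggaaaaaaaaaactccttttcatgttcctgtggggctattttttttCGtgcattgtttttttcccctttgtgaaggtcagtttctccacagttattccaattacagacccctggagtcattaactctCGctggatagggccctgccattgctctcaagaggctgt
Wif1: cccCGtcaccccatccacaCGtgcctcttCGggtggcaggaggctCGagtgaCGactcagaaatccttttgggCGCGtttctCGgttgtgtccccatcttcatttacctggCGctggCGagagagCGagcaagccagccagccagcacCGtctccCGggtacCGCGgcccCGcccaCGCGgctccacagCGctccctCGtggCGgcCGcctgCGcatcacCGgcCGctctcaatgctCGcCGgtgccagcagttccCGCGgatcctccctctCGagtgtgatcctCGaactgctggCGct
Sfrp2 and Wif1 had CpG-rich windows, with 21 and 32 CpG dinucleotides and a GC content of 65% and 67.0%. Frzb had 4 CpG dinucleotides and 45.3% GC. The median over the 33465 windows of this length was 7 CpG dinucleotides and 51.7% GC. Both strands were searched for the TATA box TATAAA, the TCF/LEF site CTTTGAT and the AP-1 site TGANTCA. None of the 3 windows held any of these letters, which occurred in 14.2%, 3.63% and 7.33% of all windows.

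Levels are given as CPM, the count relative to the TMM-scaled library size, a scaling that sets the bulk of genes equal between libraries. They are not divided by transcript length, so they can be compared between groups for 1 gene but not between genes. Fold changes are log2 values from the edgeR fit of all 10 groups, with their SE, and a gene was called at a Benjamini-Hochberg FDR below 0.01. Counting precision differed widely. Counts were at least 1589 in every library for Sfrp1, at least 2363 for Dkk3 and at least 235 for Wif1. Sfrp2 ran from 25 to 261 counts and Frzb from 3 to 103. Sfrp4 ran from 0 to 49 counts. Dkk2 reached 10 counts in only 13 of the 65 libraries, all of them DMSO2 or Dox at 24 hours, and was at 0 in 9 of the 65. It thus has a row only through those groups, which for 5FU lie outside the comparison.

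After 24 hours of 5FU or Ace, the same 5 members were called lower, namely Sfrp2, Sfrp4, Frzb, Dkk2 and Wif1, while Sfrp1 and Dkk3 were close to their controls. Dox gave another picture at 24 hours, with Sfrp1, Sfrp4 and Dkk2 higher and Sfrp2, Frzb, Dkk3 and Wif1 lower. The counts of called members stand against a high background. At 24 hours 5 of 7 members were called with 5FU, against 55.8% of all genes called and 27.8% called lower, and 5 of 7 with Ace, against 37.2% called and 19.1% called lower. With Dox 7 of 7 were called, 3 higher and 4 lower, against 81.4% of all genes, 40.4% higher and 41% lower. At 6 hours 5FU had 1 member called higher and 1 lower (47.9% of all genes called), Ace 3 lower (31.7% called, 15.2% lower) and Dox 3 higher (64.2% called, 31.5% higher). Treated and control libraries did not overlap for 0, 2 and 2 members with 5FU, Ace and Dox at 6 hours, against 28.2%, 24.5% and 42.6% of all genes. At 24 hours there was no overlap for 4, 3 and 4 members, against 42.9%, 26.9% and 68.2%. Nothing is read from these shares, since the members were not chosen independently of the data. Dkk2 also counts here with a row that only DMSO2 and Dox libraries at 24 hours gave it. The median log2 fold change of the members at 24 hours was -2.19 with 5FU, -1.15 with Ace and -0.48 with Dox, beside medians of -0.01, -0.00 and 0.00 over all genes.

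**Figure D1:**
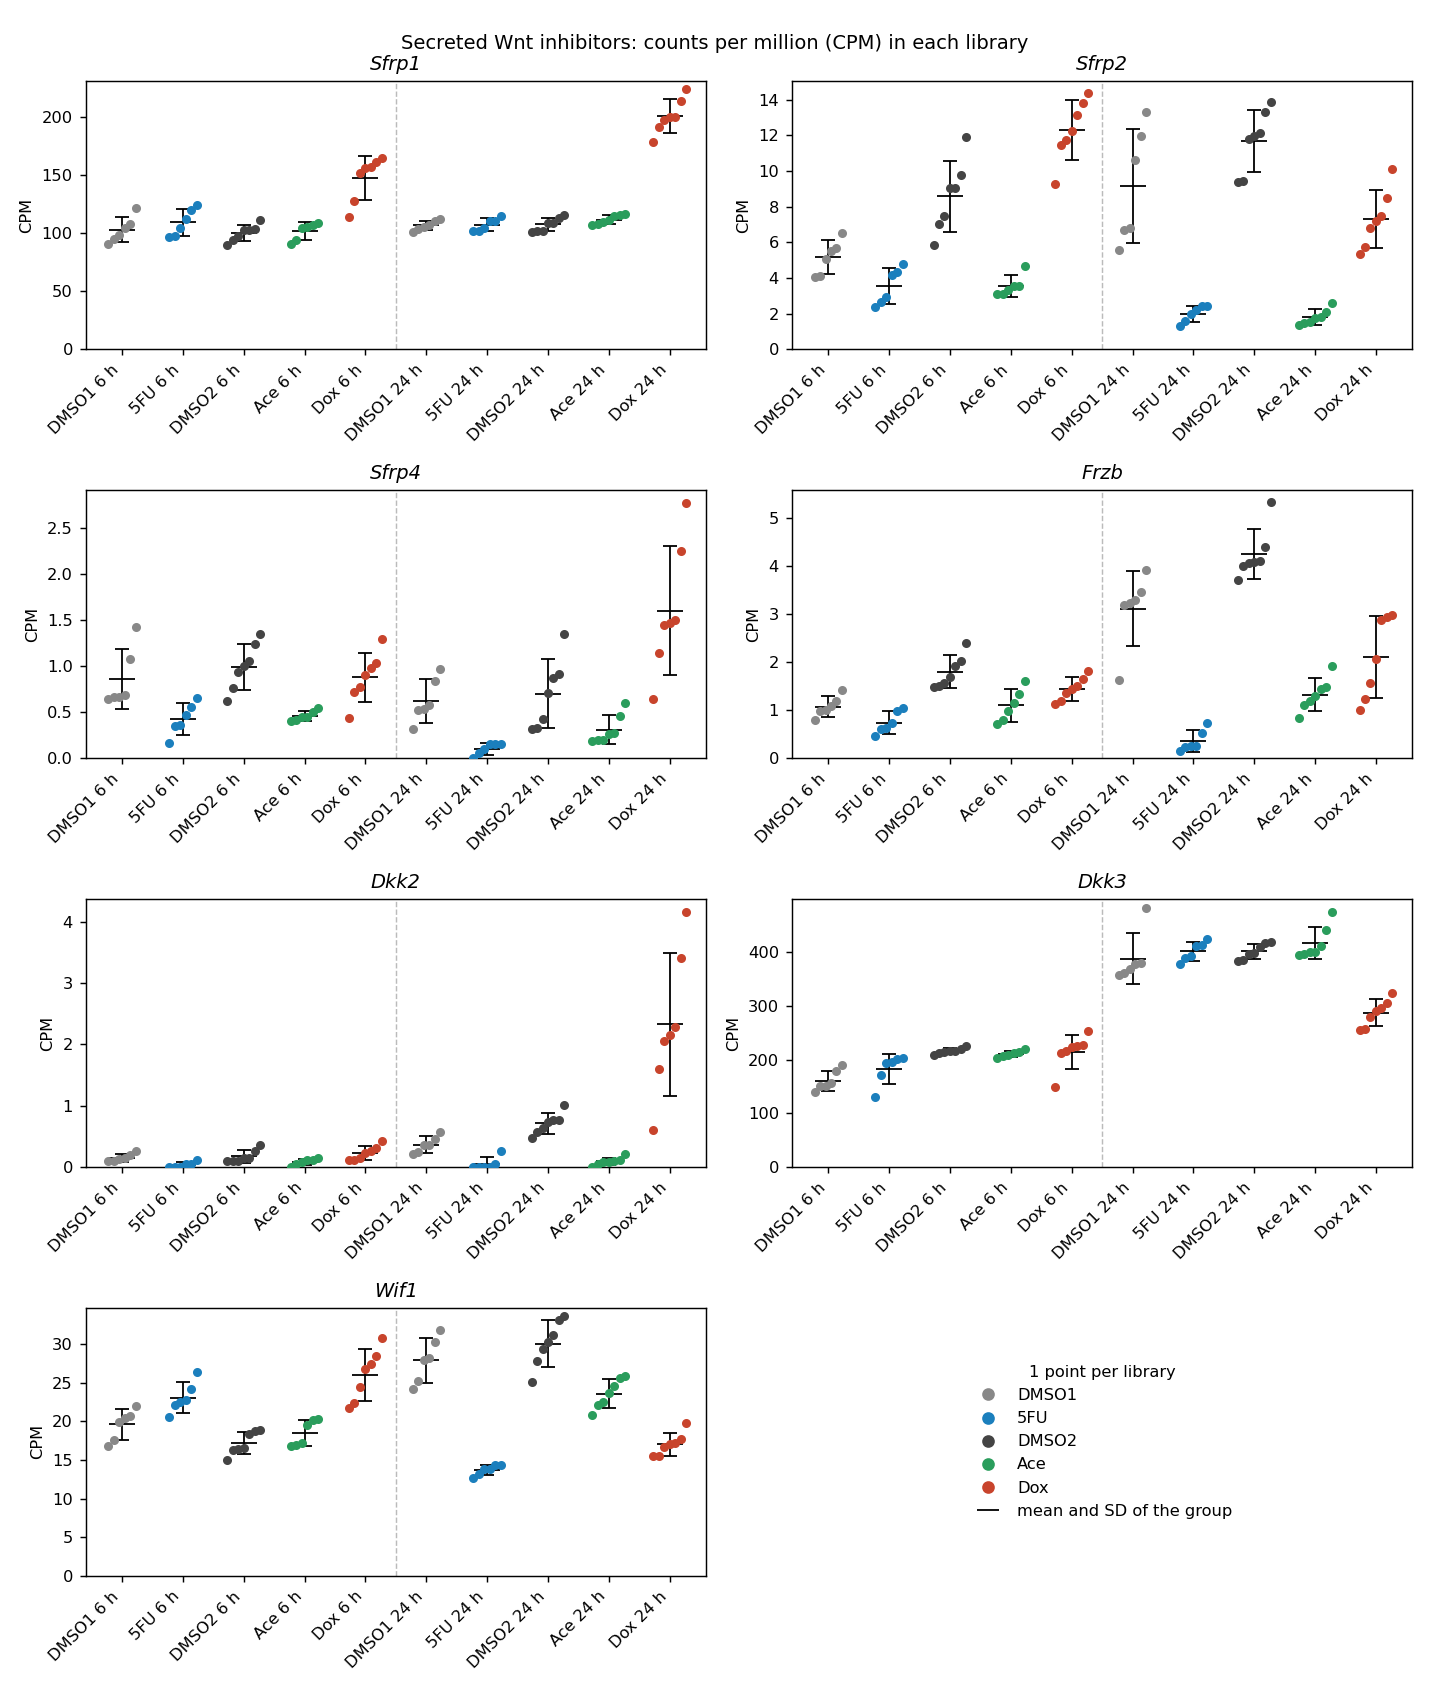
CPM (vertical axis, from 0, own scale for each gene) of the 7 secreted Wnt inhibitors in the 65 libraries, by group, with 6-hour groups left and 24-hour groups right of the dashed line; bars give the mean and SD. At 24 hours Sfrp2 and Frzb in 5FU lay below every DMSO1 library and in Ace below every DMSO2 library, Sfrp1 was highest in Dox at 24 hours (mean 200.8 CPM), and Dkk2 in Dox at 24 hours ran from 0.605 to 4.16 CPM.

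Among the secreted Frizzled-related proteins, Sfrp2 had the largest difference with Ace. At 24 hours the lowest, median and highest Sfrp2 levels were 9.37, 11.98 and 13.9 CPM in DMSO2 and 1.39, 1.75 and 2.63 CPM in Ace. In DMSO1 they were 5.60, 8.72 and 13.3 CPM, and in 5FU 1.29, 2.10 and 2.42 CPM. Every 5FU and Ace library was thus below every library of its own control. The Sfrp2 level was 6.46-fold lower with Ace (log2 fold change -2.69 ± 0.18, SE) and 4.57-fold lower with 5FU (-2.19 ± 0.20). Dox libraries at 24 hours had 5.37, 7.19 and 10.1 CPM, a log2 fold change of -0.68 ± 0.16 with overlapping ranges.

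The separation of Sfrp2 in Ace from its control was already present at 6 hours. DMSO2 had 5.86, 9.03 and 11.9 CPM and Ace 3.09, 3.44 and 4.70 CPM, with no overlap (-1.27 ± 0.18). With 5FU the Sfrp2 levels of 2.37, 3.55 and 4.78 CPM overlapped those of DMSO1, which were 4.08, 5.31 and 6.53 CPM, and the log2 fold change of -0.54 ± 0.19 was not called. It was called in 5 of the 12 fits that left out 1 library, which ran from -0.66 to -0.46 (5FU libraries 2, 3 and 5 and DMSO1 libraries 4 and 6). Dox stood on the other side at this time, with 9.30, 12.2 and 14.4 CPM and a log2 fold change of 0.52 ± 0.15; scaled by library size alone it was 0.36 ± 0.16 and not called. All 7 Dox libraries were above the mean of DMSO2 at 6 hours and all 7 were below it at 24 hours. The 24-hour effect minus the 6-hour effect for Sfrp2 was -1.65 ± 0.27 with 5FU, -1.42 ± 0.25 with Ace and -1.20 ± 0.22 with Dox. Group means of Sfrp2 ran from 1.82 CPM in Ace at 24 hours to 12.3 CPM in Dox at 6 hours, and each group's range overlapped that of the next in this order.

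Frzb, also called Sfrp3 and first known from cartilage, had the lowest fitted log2 fold change of the 7 members with 5FU at 24 hours, except without 5FU 24 h library 3, when Dkk2 was lower (-4.43). At 24 hours it had 1.62, 3.26 and 3.93 CPM in DMSO1 and 0.155, 0.257 and 0.735 CPM in 5FU, so all 6 treated libraries lay below all 6 controls. The level was 8.45-fold lower (log2 fold change -3.08 ± 0.27). DMSO2 at 24 hours had 3.71, 4.09 and 5.33 CPM, Ace 0.832, 1.31 and 1.93 CPM and Dox 1.01, 2.08 and 2.99 CPM. Neither drug overlapped DMSO2, and Frzb was 3.19-fold lower with Ace (-1.67 ± 0.20) and 2.04-fold lower with Dox (-1.03 ± 0.19).

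Smaller Frzb differences at 6 hours pointed the same way. The log2 fold change was -0.53 ± 0.26 with 5FU, -0.71 ± 0.22 with Ace and -0.32 ± 0.21 with Dox, and the ranges overlapped in all 3 comparisons. Only the Ace value was called, and that call was lost in 8 of the 13 fits that left out 1 library (Ace libraries 3, 4, 5 and 6 and DMSO2 libraries 1, 3, 5 and 6), while the fits ran from -0.85 to -0.61. The 24-hour effect on Frzb minus that at 6 hours was -2.55 ± 0.38 with 5FU and -0.96 ± 0.30 with Ace. In the order of group means, from 0.363 CPM in 5FU to 4.25 CPM in DMSO2 at 24 hours, neighbouring groups overlapped throughout.

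Sfrp4, which is known for its part in bone and in phosphate handling, was measured with few counts. In 5FU at 24 hours each library had 0 to 3 counts of Sfrp4, 12 in sum, against 5 to 19 per library and 68 in sum in DMSO1. The summed counts give a ratio 6.04-fold lower, with an exact 95% interval for counting error of 3.24 to 12.3. The ranges, 0 to 0.158 CPM in 5FU and 0.316 to 0.965 CPM in DMSO1, did not overlap. Ace at 24 hours had 0.185, 0.260 and 0.600 CPM and DMSO2 0.321, 0.7098 and 1.35 CPM, which overlapped (log2 fold change -1.15 ± 0.33). The Ace call was lost without DMSO2 24 h library 7, which left a log2 fold change of -0.90, and in a fit of the compared groups only (-1.14 ± 0.37).

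Dox at 24 hours had the highest Sfrp4 levels of the 10 groups, 0.646, 1.47 and 2.78 CPM. The log2 fold change against DMSO2 was 1.17 ± 0.27, with 6 of 7 Dox libraries above the control mean and overlapping ranges. At 6 hours Sfrp4 was lower with Ace, at 0.410, 0.447 and 0.546 CPM against 0.627, 0.999 and 1.35 CPM in DMSO2 without overlap (-1.10 ± 0.31). It was also lower with 5FU, at 0.165, 0.415 and 0.655 CPM against 0.643, 0.681 and 1.43 CPM in DMSO1 with ranges that overlapped. There the fits that left out 1 library gave log2 fold changes from -1.17 to -0.80, and the call was lost in 6 of those 12 (without 5FU library 1, 3, 4 or 6 or DMSO1 library 3 or 6). Dox at 6 hours gave -0.19 ± 0.27 for Sfrp4. Only 5FU at 24 hours, at the bottom of the order, did not overlap the next group, Ace at 24 hours.

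Sfrp1, the best-known member of its family and an inhibitor of canonical Wnt signalling, was nearly level outside Dox. Its means in the 4 DMSO, 2 5FU and 2 Ace groups ran only from 100.4 to 111.9 CPM, and each overlapped its neighbour in the order of levels. Dox at 6 hours had 114, 156 and 164 CPM against 90.3, 103 and 112 CPM in DMSO2 (log2 fold change 0.55 ± 0.06). At 24 hours Dox had 179, 199.8 and 224 CPM against 101, 109 and 116 CPM in DMSO2 (0.90 ± 0.06), 1.87-fold higher. No Dox library overlapped its control at either time. With 5FU the log2 fold change of Sfrp1 was 0.08 ± 0.07 at 6 hours and 0.01 ± 0.07 at 24 hours, and with Ace it was 0.02 ± 0.06 and 0.06 ± 0.06.

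Wif1, which binds Wnt proteins through its WIF domain, was higher with 5FU and Dox at 6 hours and lower at 24 hours. At 6 hours it had 15.1, 16.5 and 18.8 CPM in DMSO2 and 21.7, 26.8 and 30.7 CPM in Dox, with no overlap (log2 fold change 0.59 ± 0.07). At 24 hours the values were 25.03, 30.2 and 33.7 CPM in DMSO2 and 15.5, 17.1 and 19.8 CPM in Dox, again apart but in the other order (-0.82 ± 0.07). The Dox effect on Wif1 at 24 hours minus that at 6 hours was -1.41 ± 0.10, or -1.21 ± 0.11 with scaling by library size alone.

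The 5FU series of Wif1 had the same course. At 6 hours 5FU libraries had 20.5, 22.6 and 26.4 CPM against 16.9, 20.2 and 22.04 CPM in DMSO1, which overlapped (0.24 ± 0.08). This call was lost in 6 of the 12 fits that left out 1 library (5FU libraries 2, 3 and 4 and DMSO1 libraries 3, 4 and 5), which ran from 0.19 to 0.27. At 24 hours they had 12.6, 13.8 and 14.4 CPM against 24.1, 28.02 and 31.9 CPM in DMSO1, 2.03-fold lower without overlap (-1.02 ± 0.08). With Ace, Wif1 was 0.11 ± 0.08 from DMSO2 at 6 hours and -0.35 ± 0.07 at 24 hours, when all 7 libraries were below the control mean but the ranges overlapped. The lowest group of Wif1, 5FU at 24 hours with a mean of 13.7 CPM, was apart from the next, Dox at 24 hours with 17.04 CPM, and all higher neighbours overlapped up to DMSO2 at 24 hours.

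Dkk2, a ligand of the Lrp co-receptors, had the largest ratio of highest to lowest group mean of the 7 members (64.9). Its means ran from 0.0358 CPM in 5FU at 6 hours, which rests on 4 counts in all, to 2.32 CPM in Dox at 24 hours. In Dox at 24 hours the counts were 15 to 71 per library and the levels 0.605, 2.15 and 4.16 CPM, against 9 to 19 counts and 0.481, 0.742 and 1.01 CPM in DMSO2. The log2 fold change was 1.68 ± 0.28. The lowest value came from Dox 24 h library 7, and the other 6 libraries began at 1.61 CPM, above every control. Without the 5 libraries farthest from their groups, among them that one, the value was 1.87 ± 0.26.

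Ace at 24 hours had 0 to 4 counts of Dkk2 per library, 13 in sum against 93 in DMSO2, without overlap in CPM (log2 fold change -2.88 ± 0.44). In 5FU at 24 hours 4 of 6 libraries were at 0 and the others had 1 and 5 counts, against 4 to 9 counts per library in DMSO1. That gave a log2 fold change of -2.62 ± 0.61. The difference was made smaller by 5FU 24 h library 3, the one with 5 counts, and the value was -4.43 without it. That library, at 0.269 CPM, made the ranges overlap, as the lowest DMSO1 library had 0.209 CPM. The 5FU group at 6 hours had 4 counts in all against 19 in DMSO1, 4.37-fold lower with an interval of 1.45 to 17.7; the fit called it only without 5FU 6 h library 2 (-2.55). Ace at 6 hours had 10 against 25 counts, 2.06-fold lower with an interval of 0.957 to 4.81. At this depth the 6-hour Dkk2 levels with Ace and with Dox (0.36 ± 0.48) could not be told from those of DMSO2.

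Dkk3, a divergent Dickkopf protein that is not known as a strong Lrp ligand, differed more between culture times than between any drug and its control. Its DMSO2 levels were 208, 217 and 226 CPM at 6 hours and 384, 398 and 418 CPM at 24 hours. With 5FU and Ace the log2 fold change lay between -0.04 and 0.18 at both times, and no such value was called. Without 5FU 6 h library 1 the 5FU value at 6 hours was 0.26 and called. Dox at 24 hours was the exception, at 256, 291 and 324 CPM, below every DMSO2 library (-0.48 ± 0.07). At 6 hours the Dox value was -0.01 ± 0.07, with Dox 6 h library 4 at 149.6 CPM and the other 6 libraries from 212 to 253 CPM. In the order of Dkk3 means, neighbours overlapped except for 5FU and Ace at 6 hours, DMSO2 at 6 hours and Dox at 24 hours, and Dox and DMSO1 at 24 hours. Dox 6 h library 4 lay within the ranges of DMSO1 and 5FU at 6 hours.

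**Figure D2:**
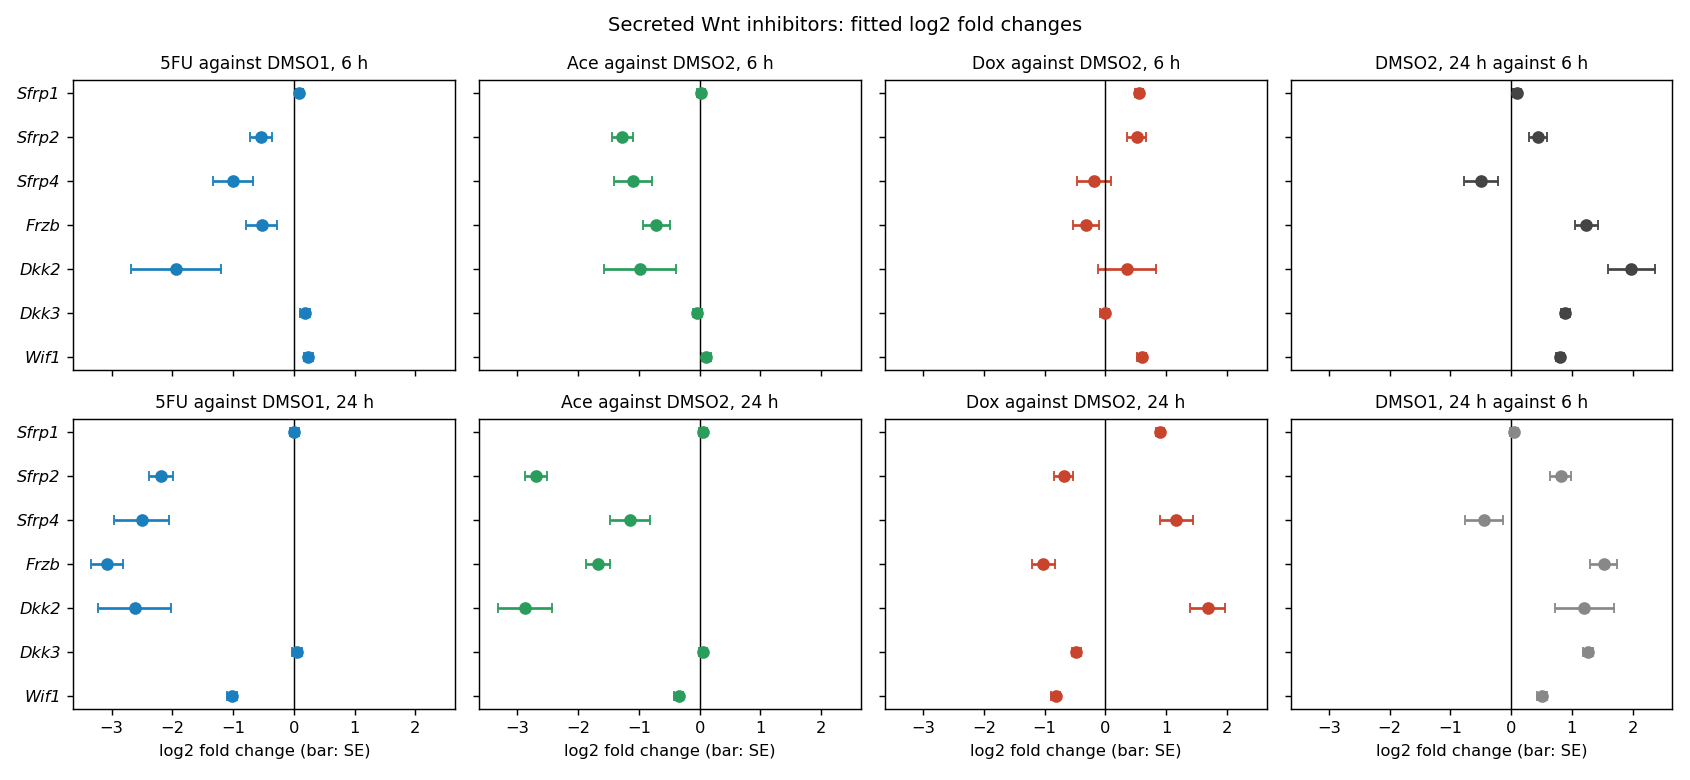
Log2 fold changes (horizontal axis; bars are 1 SE) of the 7 members for each drug against its own DMSO control and for 24 against 6 hours within each control. With 5FU and Ace at 24 hours Sfrp2, Sfrp4, Frzb, Dkk2 and Wif1 lay left of 0 and Sfrp1 and Dkk3 next to it, while with Dox at 24 hours Dkk2 (1.68), Sfrp4 (1.17) and Sfrp1 (0.90) lay right of 0.

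These genes also differed between culture times without drug. At 24 hours 4 of 7 members were called higher than at 6 hours in DMSO1 and 5 of 7 in DMSO2, beside 25.9% and 27% of all genes. There was no overlap between the times for 3 and 4 members, beside 35.7% and 36.9% of all genes. Sfrp2, Frzb, Dkk3 and Wif1 were called in both controls. Frzb was higher at 24 hours by 1.52 ± 0.22 in DMSO1 and 1.23 ± 0.19 in DMSO2 on the log2 scale, without overlap in either. Dkk3 was higher by 1.27 ± 0.08 and 0.89 ± 0.07 and Wif1 by 0.51 ± 0.08 and 0.80 ± 0.07, likewise without overlap. Sfrp2 was higher by 0.82 ± 0.17 and 0.45 ± 0.15 with overlapping ranges, and the second of these calls was lost in 10 of the 14 fits that left out 1 library. Those 14 fits ran from 0.37 to 0.54, and the call held only without 24 h library 1 or 7 or 6 h library 2 or 5. Dkk2 was higher by 1.20 ± 0.49 in DMSO1, which was not called, and by 1.98 ± 0.39 in DMSO2. Sfrp4 was the only member on the other side in both controls, at -0.44 ± 0.31 and -0.50 ± 0.28, neither of them called. A drug value at 24 hours is therefore a difference from a control that had itself moved. For Frzb, the 5FU mean was 0.746 CPM at 6 hours and 0.363 CPM at 24 hours while DMSO1 went from 1.08 to 3.12 CPM. The Ace mean of Frzb was 1.10 CPM at 6 hours and 1.33 CPM at 24 hours while DMSO2 went from 1.80 to 4.25 CPM.

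The 2 controls differed in 3 members at the earlier time. At 6 hours DMSO1 was lower than DMSO2 in Sfrp2 (-0.73 ± 0.17), Frzb (-0.74 ± 0.22) and Dkk3 (-0.43 ± 0.08), beside 6.6% of all genes called lower. Frzb and Dkk3 did not overlap between the 2 controls, beside 5.07% of all genes, although the Frzb call was lost in 10 of the 13 fits that left out 1 library, which ran from -0.83 to -0.65. It held without DMSO1 library 3 or DMSO2 library 4 or 7. In the same comparison 7 of 10 fibroblast markers (median log2 fold change -0.45) and 6 of 7 endothelial markers (median -0.64) were called lower. Their summed levels at 6 hours were 6546 to 10964 CPM in DMSO1 and 9739 to 14517 CPM in DMSO2 for fibroblasts, and 147 to 201 CPM and 237 to 292 CPM for endothelial cells. Of 12 cardiomyocyte markers 5 were called higher and 1 lower (median 0.17). Their summed level was 55357 to 81117 CPM in DMSO1 and 50974 to 54906 CPM in DMSO2. Smooth muscle and pericyte markers had 3 of 8 higher and 3 lower (median 0.42). The part of these cell types in the members' values was not tested. None of the 7 members was called between the controls at 24 hours, beside 0.433% of all genes. Values for 5FU stand against DMSO1 and those for Ace and Dox against DMSO2.

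Across the 10 group means, each member's profile was compared with those of about 10508 genes with a mean count of at least 100, as the root mean square (RMS) difference of log2 CPM after centring each profile at 0. Log2 CPM was taken with a prior count of 2, which narrows the profiles of genes with few counts, such as Dkk2 and Sfrp4. Sfrp2 was nearest to Igfbp3 (0.34), Fndc1 (0.40) and Thbs2 (0.51), and Frzb to Piezo2 (0.28), Fndc1 (0.32) and Col4a3 (0.39). Dkk2 was nearest to Slit2 (0.40), Dok2 (0.42) and Ccdc80 (0.47), against an SD of 1.25 of its own profile. For Sfrp4 the nearest were Ydjc (0.22), Peg12 (0.29) and Entpd1 (0.31). The profile of Sfrp1, level outside Dox, was nearest to Dbi, G6pc3 and Chtf8 (0.08 each). That of Dkk3 was nearest to Carmil3 (0.10), Frem2 (0.14) and Atp1b2 (0.15), and that of Wif1 to Pros1 (0.15), Itgb2 (0.16) and Rxfp1 (0.16). Among the members themselves, the smallest RMS differences were those of Sfrp1 and Wif1 (0.47) and of Dkk3 and Wif1 (0.56). Sfrp1 and Dkk3 (0.58) and Sfrp2 and Sfrp4 (0.60) came next. The profiles of Sfrp1, Wif1 and Dkk3 varied little (SD 0.31, 0.36 and 0.53). Each RMS difference between them was above both SDs, so their rank does not show a shared course. In Dox at the later time Sfrp1 was at 0.78 and Wif1 at -0.30. For Sfrp2 and Sfrp4 the RMS difference was below both SDs (0.99 and 0.84). The pair farthest apart was Dkk2 and Dkk3 (1.17). Likeness over 10 group means is a description, and the groups share their controls and culture times.

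Cell type markers also differed between the groups. All 12 cardiomyocyte markers, such as Tnnt2 and Myh6, were in the table. At 24 hours their summed level ran from 43675 to 48990 CPM in DMSO1, from 35488 to 38705 CPM in 5FU, from 44183 to 56352 CPM in DMSO2, from 44654 to 60777 CPM in Ace and from 27145 to 36300 CPM in Dox. With 5FU 2 of 12 were called higher and 7 lower (median log2 fold change -0.37), with Ace 2 and 4 (-0.16) and with Dox 1 and 9 (-0.88). Of all genes, 55.8%, 37.2% and 81.4% were called in these comparisons. Dox at 6 hours had 7 higher and 3 lower (0.45), beside 64.2% of all genes called. The cultures also held RNA of fibroblast markers, such as Col1a1 and Pdgfra. At 24 hours the summed level of the 10 fibroblast markers ran from 10018 to 19963 CPM in DMSO1, from 5201 to 5872 CPM in 5FU, from 15171 to 18964 CPM in DMSO2, from 7307 to 9334 CPM in Ace and from 1947 to 4101 CPM in Dox. Their median log2 fold change at 24 hours was -1.25 with 5FU, -1.03 with Ace and -2.14 with Dox. Of the 10, 10, 9 and 10 were called lower, beside 27.8%, 19.1% and 41% of all genes. At 6 hours 7 of 10 were called lower with Ace (median -0.37; 7375 to 11002 CPM), 3 with 5FU (-0.11) and 6 with Dox (-0.39), beside the 6-hour values of Sfrp2, Sfrp4 and Frzb. In the controls 9 of 10 fibroblast markers in DMSO1 and 7 of 10 in DMSO2 were called higher at 24 than at 6 hours. Of all genes, 25.9% and 27% were. With 5FU and Ace at 24 hours, Sfrp2, Sfrp4, Frzb, Dkk2 and Wif1 were lower, and Sfrp1 and Dkk3 were close to their controls. With Dox at 24 hours, Sfrp2, Frzb, Dkk3 and Wif1 were lower, and Sfrp1, Sfrp4 and Dkk2 were higher. In bulk RNA, fewer cells of a type and less RNA per cell cannot be told apart, and the part of the cardiomyocyte and fibroblast markers in the members' values was not tested.

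Other cell types gave smaller sums. Their calls with Dox stand beside 64.2% of all genes called at 6 hours and 81.4% at 24 hours (40.4% higher, 41% lower). The 7 measured endothelial markers, such as Kdr and Cdh5, summed to 269 to 360 CPM in DMSO2 and 23.5 to 52.2 CPM in Dox at 24 hours, and all 7 were called lower (median log2 fold change -3.14). Smooth muscle and pericyte markers, such as Acta2 and Tagln, had a median of 0.82 with Dox at 6 hours and -0.36 at 24 hours, with calls in both directions, 4 of 8 up and 2 down at the earlier time, then 3 up and 4 down. Macrophage markers had a median of -1.47 with Dox at 24 hours, and 8 of 9 were called lower. The epicardial markers were a small sum, 22.5 to 27.98 CPM in Dox against 16.8 to 23.2 CPM in DMSO2 at 24 hours, with 2 called higher and 3 called lower of 6. No list had a gene at 0 in all libraries of a group. The part of these cells in the members' values was not tested.

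**Figure D3:**
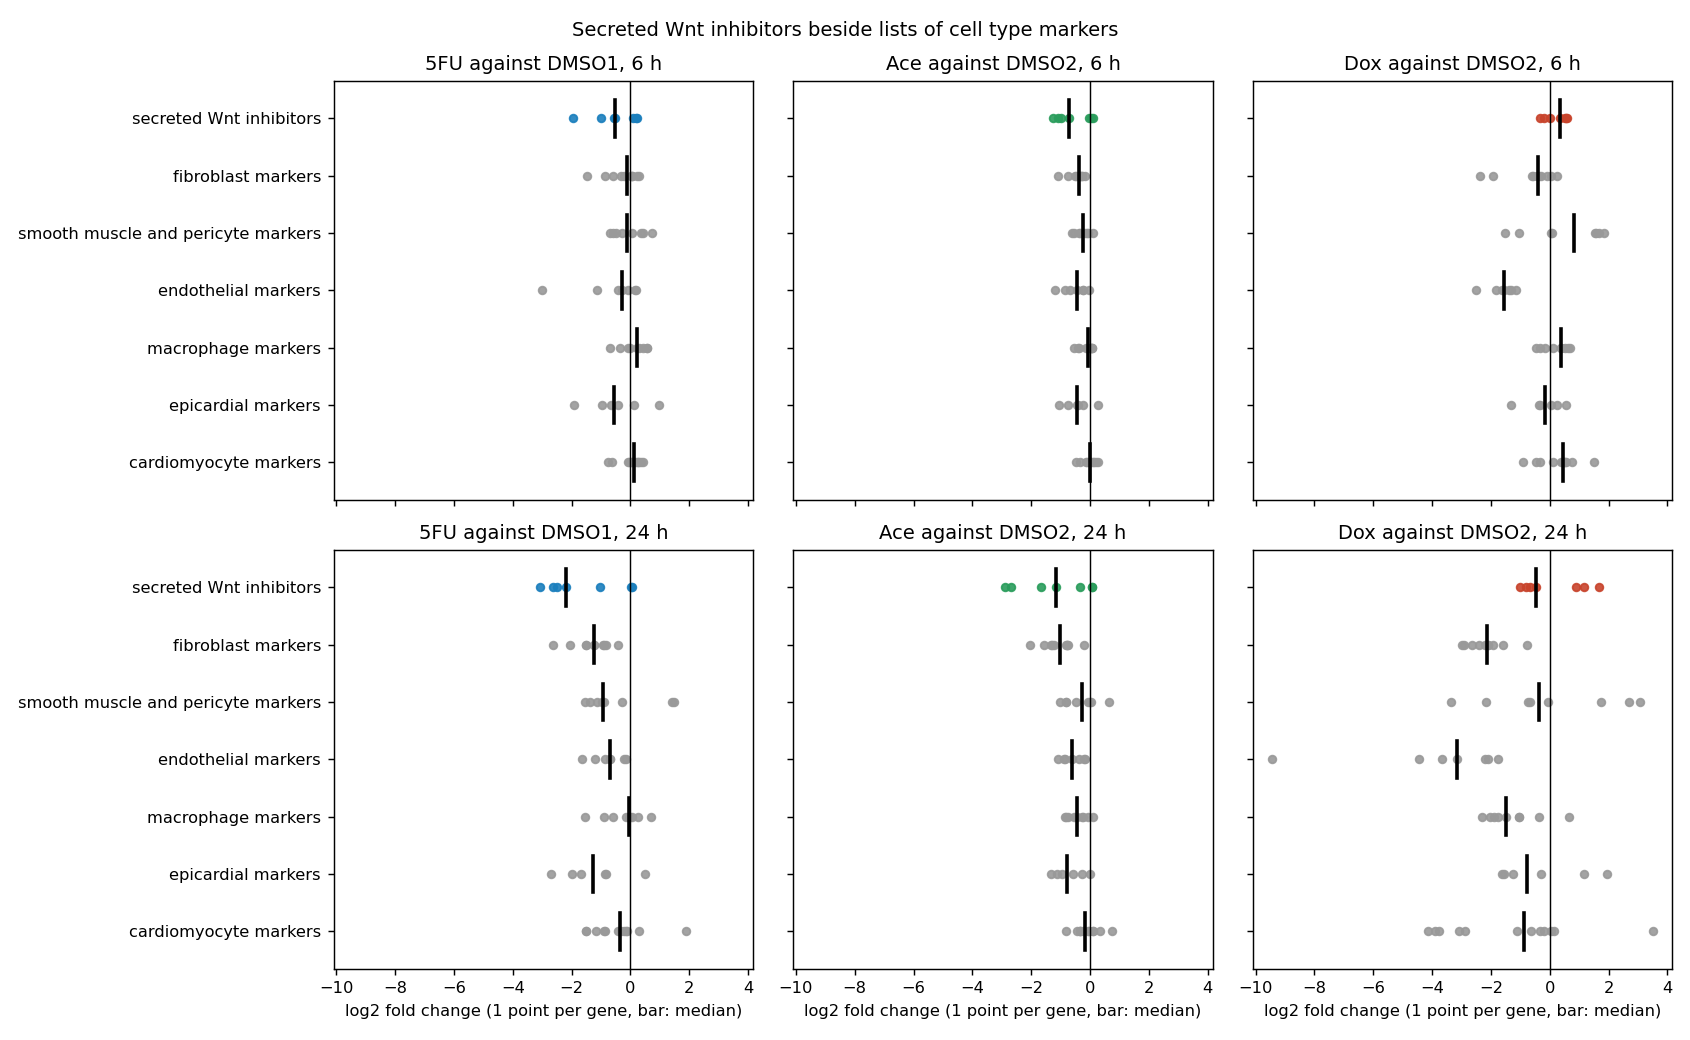
Log2 fold changes (horizontal axis) of the 7 members, in colour, and of 6 lists of cell type markers, in grey, for each drug against its own control; 1 point is 1 gene and the bar is the list's median. With Dox at 24 hours 3 members lay right of 0 and 4 left of it, and all 10 fibroblast and all 7 endothelial markers lay left of it.

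The rest of the Wnt pathway was described with 81 measured genes in 7 lists, tested with edgeR's quasi-likelihood test with Benjamini-Hochberg adjustment over all genes. With 5FU at 24 hours 11 of these genes rose and 29 fell, 49.4% of them and below the 55.8% of all genes that were called. With Ace 5 rose and 20 fell, 30.9% beside 37.2% of all genes. Dox at 24 hours had 44 rise and 29 fall, 90.1% beside 81.4% of all genes. The list genes include Notum, Wnt6, Wnt7b and Sp5, which reached 10 counts only in Dox libraries and so have a row only through them. At 6 hours 14 rose and 22 fell with 5FU (44.4% beside 47.9%), 15 and 12 with Ace (33.3% beside 31.7%), and 33 and 23 with Dox (69.1% beside 64.2%). Of the antagonists outside the 7 members, 8 of 14 were measured, and Sfrp5, Dkk1, Sost, Sostdc1, Draxin and Kremen2 had no row in the table. Igfbp4, an IGF-binding protein that can also block Lrp6, fell in all 6 drug comparisons, with log2 fold changes from -0.45 ± 0.12 with 5FU at 6 hours (FDR 0.000773) to -2.59 ± 0.12 with 5FU at 24 hours (FDR 1.40e-27). Tpbg, a membrane protein that interferes with Lrp6, rose with Dox at 24 hours by 1.06 ± 0.07 (FDR 1.12e-21), when Dkk4 fell by 0.85 (SE 0.08, FDR 2.58e-16).

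The counts per list stand beside the same shares of all genes at 24 hours, 40.4% higher and 41% lower with Dox, 27.8% lower with 5FU and 19.1% lower with Ace. The Wnt ligands and the genes for their secretion had 11 of 15 genes higher with Dox at 24 hours and 4 lower, and 0 higher and 3 lower with 5FU and with Ace. Wnt6 and Wnt7b are in this list only through the Dox libraries, so nothing is read from the count of 11. Wnt4 rose with Dox at both times, by 1.37 ± 0.10 at 6 hours and 1.20 ± 0.11 at 24 hours (FDR 7.94e-19 and 5.30e-16), and fell with Ace and 5FU at 24 hours. Wnt5a, a ligand of the non-canonical branch, fell by 0.96 (SE 0.05) with Dox at 24 hours (FDR 4.92e-26), and Porcn, which attaches the lipid of Wnt proteins, by 2.51 (SE 0.10, FDR 6.07e-34). Of the 16 receptors, Fzd5 was higher with Dox at both times (1.88 ± 0.08 and 2.03 ± 0.08, FDR 1.22e-30 and 4.00e-34), and Fzd1 was lower with 5FU at 24 hours (-1.52 ± 0.06, FDR 5.57e-31). The R-spondin arm, a list of genes that control Frizzled turnover in either direction, had 5 measured genes, of which 2 rose and 2 fell with Dox at 24 hours. Among 20 intracellular genes 8 rose and 4 fell with 5FU, 2 rose and 3 fell with Ace and 9 rose and 8 fell with Dox at 24 hours. Tle1, a Groucho corepressor, rose with Dox at 24 hours by 2.37 ± 0.09 (FDR 7.01e-33), and the list of TCF/LEF factors and corepressors had 0 higher and 5 lower of 9 with 5FU.

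Of the 13 measured target genes of beta-catenin, 9 were higher and 3 lower with Dox at 24 hours, where 40.4% of all genes were higher and 41% lower. With 5FU 1 was higher and 7 were lower, beside 27.8% of all genes lower, and with Ace 0 were higher and 5 lower, beside 19.1% lower. A difference between the drugs was not tested. Axin2, a feedback inhibitor and a common readout of the canonical branch, had 1.47, 1.75 and 2.11 CPM in DMSO2 at 24 hours and 6.62, 16.3 and 17.7 CPM in Dox, with no overlap. It rose with Dox by 1.29 ± 0.21 at 6 hours and 3.10 ± 0.21 at 24 hours (FDR 1.22e-07 and 8.86e-22). Axin2 also rose at 6 hours with 5FU (0.67 ± 0.23, FDR 0.00888) and Ace (0.83 ± 0.22, FDR 0.00140). The FDR with 5FU was close to the threshold of 0.01, and the ranges overlapped widely. They were 1.35 to 6.61 CPM in 5FU and 1.24 to 4.104 CPM in DMSO1. With Ace the lowest library, at 2.796 CPM, was above the highest of DMSO2, at 2.458 CPM. At 24 hours Axin2 was -0.28 ± 0.26 with 5FU (FDR 0.366) and -0.33 ± 0.24 with Ace (FDR 0.260), which did not pass. Notum, Wnt7b, Sp5 and Wnt6 were singled out after their values were seen. All of them reached 10 counts only in Dox libraries, so nothing is read from how many list genes were higher with Dox. Notum, a secreted enzyme that inactivates Wnt proteins by removing their lipid, had 1654 counts in the Dox libraries at 24 hours and 3 in DMSO2. The counts were 515 and 2 for Wnt7b, 614 and 16 for Wnt6 and 226 and 1 for Sp5, a transcription factor and target of the pathway. They are a description only, since the Dox libraries gave these genes their rows.

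**Figure D4:**
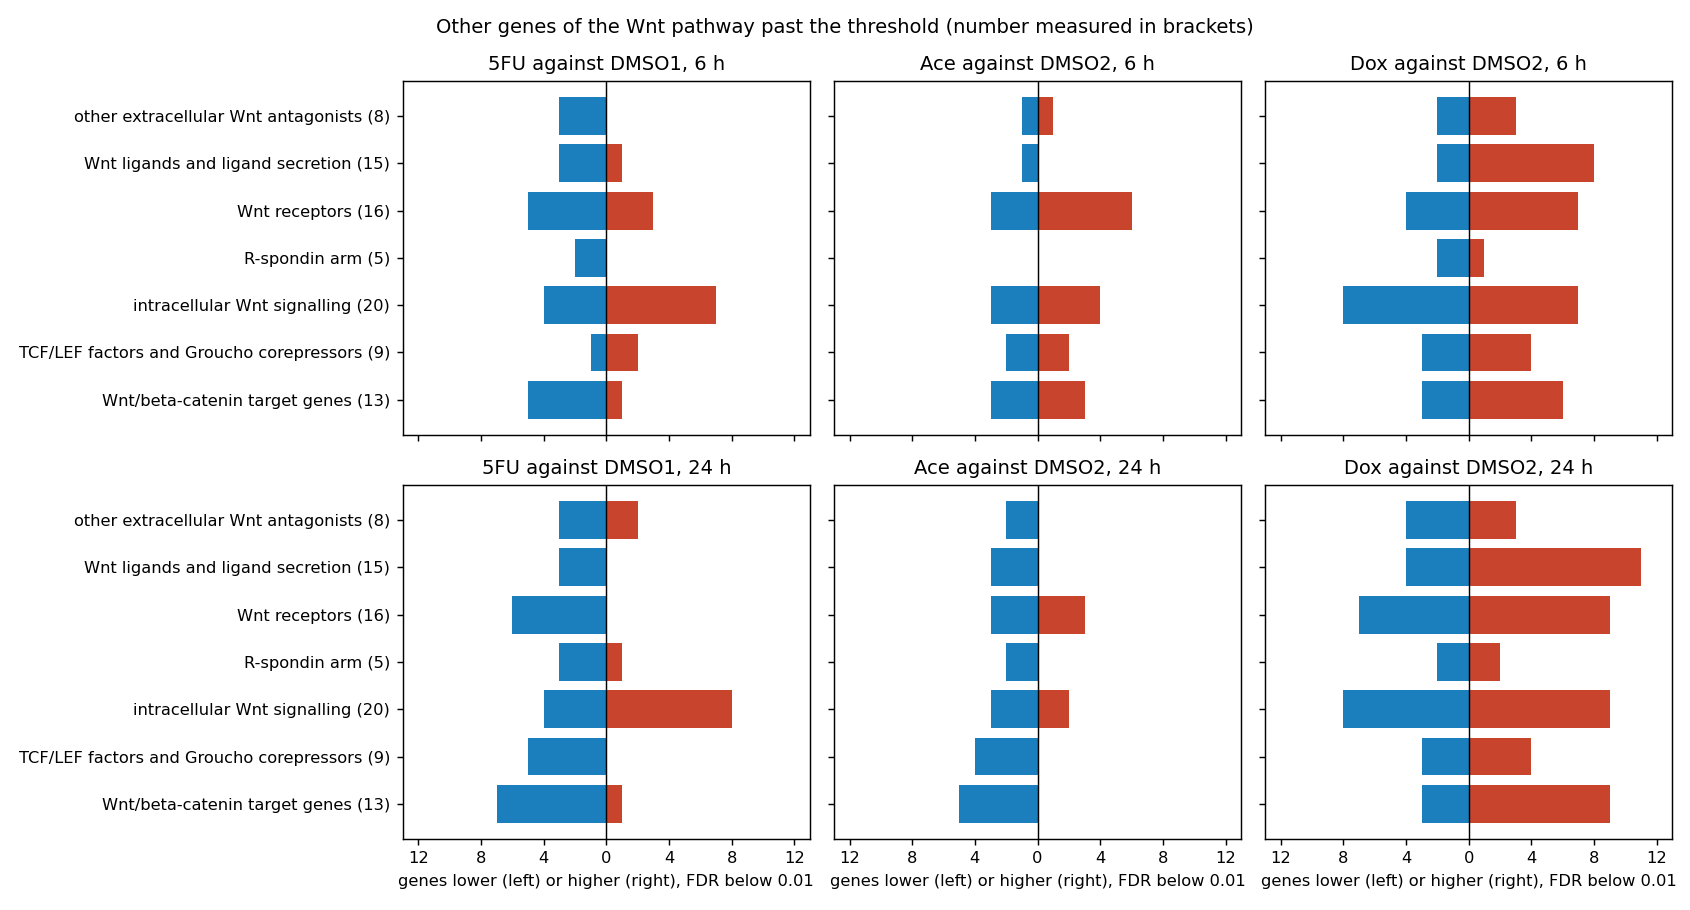
Number of genes lower (left, blue) or higher (right, red) at an FDR below 0.01 in 7 lists of other Wnt pathway genes, for each drug against its own control, with the number measured in brackets. Dox at 24 hours had 11 of 15 ligand and secretion genes and 9 of 13 target genes higher, while 5FU at 24 hours had 7 of 13 target genes lower. Some genes higher with Dox, such as Wnt6 and Wnt7b, reached 10 counts only in Dox libraries.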

How the data were processed

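The members and the gene lists were chosen with earlier results of these data known. PolyA RNA of 65 libraries was sequenced. Per the labels and the study's methods, the authors assigned reads to rat transcripts (Ensembl v96) with kallisto 0.46.0, used tximport to sum them per Entrez gene and dropped genes that had few counts in all libraries. The deposited values are estimated counts in whole numbers, not normalized. Columns carry a group name but no replicate number, so library numbers are labels only. Columns of the authors' own comparisons were not used. Symbols came from RefSeq (GRCr8), names only.

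Counts were scaled with TMM factors (0.859 to 1.07) and fitted with edgeR 4.0.16 in R 4.3.3 (glmQLFit, glmQLFTest), 1 term per group and no covariate. A minimum of 10 counts in 1 library or more left all 14554 genes in. Calls used a Benjamini-Hochberg FDR below 0.01, the study's threshold for its counts. The SE is the log2 fold change divided by the root of F. The fit was tested on simulated counts first. Libraries of a group were compared pairwise over all genes, and no pair of libraries within a group was a duplicate (lowest chi-square per gene 2.84 over 180 pairs). Named were all members, up to 3 genes per other Wnt list and drug comparison with the largest change among called genes with a mean count of at least 100, Axin2, the 3 nearest profiles per member, and up to 2 genes per marker list. Alternatives were DESeq2 1.42.0, other scalings, filters and thresholds, fits of compared groups only and leaving out each library. Ratio intervals are exact 95% intervals on summed counts. The p-values measure the spread between parallel cultures.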

Additional observations from a re-analysis of the deposited data

Results flagged for a closer look

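Of 70 groups of a member, 6 had a library set apart from the others by Dixon's test; at 1 in 20, chance gives 3.5. Sfrp2 was 4.70 CPM in Ace 6 h library 5, where the others ran from 3.09 to 3.58 CPM. Frzb was 1.62 CPM in DMSO1 24 h library 1 (others 3.19 to 3.93) and 5.33 CPM in DMSO2 24 h library 7 (others 3.71 to 4.40). Dkk2 was 0.269 CPM in 5FU 24 h library 3 (others 0 to 0.0525). Dkk3 was 149.6 CPM in Dox 6 h library 4 (others 212 to 253) and 482 CPM in DMSO1 24 h library 1 (others 357 to 380). DMSO1 24 h library 1 and Dox 6 h library 4 also belong to the 5 libraries that lay more than 1.5 times as far from their group as its median library over 10817 genes, with 5FU 6 h library 1, Dox 6 h library 7 and Dox 24 h library 7.

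In 3 of 21 pairs of times, every treated library was on one side of the control mean at 6 hours and on the other side at 24 hours. These were Wif1 with 5FU (log2 fold change 0.24 and -1.02), Sfrp2 with Dox (0.52 and -0.68) and Wif1 with Dox (0.59 and -0.82). The fitted 24-hour effect minus the 6-hour effect was -1.26 ± 0.11 (SE), -1.20 ± 0.22 and -1.41 ± 0.10. No p-value is given for these differences, because the members were chosen with the data known.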

How the results depend on the processing

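No paired analysis was possible because the columns carry no replicate numbers. No called log2 fold change of a member changed sign under the alternatives run, those without 1 library included. Scaling by library size alone shifted the median of all genes by -0.15 in Dox at 6 hours and by 0.20 in the Dox difference between times, and by under 0.1 elsewhere. For the thresholds and fits that follow, the share of all genes passing was not counted. Nothing is read from those counts of members and of other Wnt genes. With an FDR below 0.1, 5FU at 6 hours had 2 members higher and 4 lower in place of 1 and 1, and of the other Wnt genes Ace had 23 higher and 23 lower at 6 hours and 10 and 32 at 24 hours in place of 15 and 12 and of 5 and 20. With a log2 fold change of at least 1 as a further condition, 5FU at 6 hours had 0 members higher and 0 lower, Dox 0 higher at 6 hours (3 before) and 1 lower at 24 hours (4 before). The other Wnt genes then had 2 higher and 4 lower with 5FU, 2 and 0 with Ace and 13 and 5 with Dox at 6 hours, 0 and 10 with 5FU and 0 and 2 with Ace at 24 hours, and 9 lower with Dox at 24 hours (14 and 22, 15 and 12, 33 and 23, 11 and 29, 5 and 20, and 29 before). For 5FU at 6 hours, members higher and lower were 0 and 2 with library size alone, 0 and 0 with only the groups compared, 2 lower with DESeq2, and 2 and 0 without the 5 libraries farthest from their groups, an alternative chosen after seeing the data. Leaving out 1 library gave 0 to 2 higher and 0 to 3 lower there. Only the groups compared gave 8 other Wnt genes higher with Ace at 24 hours in place of 5. In that fit Dkk2 had too few counts to enter for 5FU at 24 hours. Of single log2 fold changes of drug against control, only those of Dkk2 moved by more than the spread between replicates, to -2.55 with 5FU at 6 hours without 5FU 6 h library 2 and to -4.43 with 5FU at 24 hours without 5FU 24 h library 3. With no minimum mean count, the nearest profile of Sfrp4 was Lck and that of Dkk2 Ptpru. The causes of these shifts were not tested. Counts limit Dkk2, Sfrp4 and Frzb, for which few reads were assigned in many libraries.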
